A study of Mus musculus with 2 samples.

Results

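T-high cells without Foxa2 or Cdx2 were examined in mouse gastruloids, clusters of cultured embryonic stem cells in which a body axis begins to form. They were chosen by their own counts: at least 2 unique molecular identifiers (UMIs, tags that let each captured RNA molecule be counted once) for T, and none for Foxa2 or Cdx2. In all, 1606 of 19294 kept cells met this rule. The library labelled wild type (the WT-labelled library) gave 672 of 8707 kept cells, and the one labelled Sp5 and Sp8 double knockout (the dko-labelled library) gave 934 of 10587. They were set against the cells of the same library with no UMI for T, Foxa2 or Cdx2, called T-negative cells here, which numbered 5937 and 7012.

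T, also called Brachyury, encodes the T-box transcription factor that marks the primitive streak, the site where epiblast cells leave the epithelium to become mesoderm and endoderm. Wnt, Nodal and FGF signals act upstream of the streak genes, and Eomes, Mixl1 and Gsc are transcription factors of the same region. Foxa2 marks the anterior streak and Cdx2 the caudal side, so the rule takes T-expressing cells in which neither was detected. Epiblast cells that do not enter the streak keep Sox2 and Sox3, which are also neural genes.

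Both groups were grown from R1 mouse embryonic stem cells, about 300 cells to an aggregate, in serum-free N2B27 medium. By the labels, one group was wild type and the other a double knockout of Sp5 and Sp8, zinc-finger transcription factors that act in the Wnt response. CHIR, which blocks the kinase GSK3 and so switches on the Wnt pathway, was added to both at 3 µM on day 2, and cells were harvested 12 hours later, at day 2.5. Aggregates were pooled, and there was 1 library per genotype, so no difference between libraries has a replicate check and none was tested. The number of clones behind the mutant line and the extent of its deletions are not given in the sources used here. Every interval below is a 95% interval that covers counting error only.

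The targeted genes went against the label. In T-high cells Sp5 had 136.5 CPM (counts per 1e+06, a gene's UMIs over all UMIs summed in the cells of a group) in the WT-labelled library and 541.8 in the dko-labelled library. Sp8 had 21.8 and 38.4 CPM. In T-negative cells Sp5 had 97.9 and 439.2 CPM. Transcripts were captured near their 3′ end, so RNA of an allele that keeps this end would still be counted, and these counts cannot check a deletion elsewhere in the gene. Such an allele and an exchange of the 2 labels cannot be told apart here, and an exchange would turn every direction given between the libraries. Median depth was 12821 and 10404 UMIs in T-high cells, against 10095 and 8206 in T-negative cells. Of the kept barcodes, 27 occurred in both libraries, and no T-high barcode was T-high in both.

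T occupies positions 8434423 to 8442496 of chromosome 17, plus strand (GRCm38). The 250 bases before its start are shown because they hold letters that match the site of TCF/LEF, the factors through which Wnt signals act, and the GC box that Sp factors bind. The same stretch is shown for Epha2, an ephrin receptor gene whose promoter also held both motifs. Of the 10 genes with the highest ratios in T-high cells described below, 6 had an entry: Gsc, Evx1, Tdgf1, Epha2, Eomes and Prickle1. Capitals mark CTTTGAT or CTTTGAA (TCF/LEF) and GGGCGG (GC box) on either strand. The sequences come from RefSeq on GRCm38.p6, T at chr17:8434173-8434422 and Epha2 at chr4:141300971-141301220, both on the plus strand.
T: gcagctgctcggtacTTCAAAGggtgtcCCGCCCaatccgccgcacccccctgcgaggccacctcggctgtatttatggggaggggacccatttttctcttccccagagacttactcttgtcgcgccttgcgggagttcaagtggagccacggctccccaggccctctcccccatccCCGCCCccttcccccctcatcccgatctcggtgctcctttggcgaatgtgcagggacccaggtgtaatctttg
Epha2: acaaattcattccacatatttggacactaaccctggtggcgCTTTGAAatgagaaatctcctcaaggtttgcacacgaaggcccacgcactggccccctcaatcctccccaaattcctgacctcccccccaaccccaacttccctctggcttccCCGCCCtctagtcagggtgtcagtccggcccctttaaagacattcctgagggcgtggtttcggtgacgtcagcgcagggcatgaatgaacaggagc
Over windows of 300 bases, from 250 before to 50 after the start, a TCF/LEF match occurred in 8.65% of 32851 promoters and a GC box in 35.7%. T had 1 and 2 matches, and Epha2 had 1 of each. The T-box motif TCACACC, found in 3.98% of promoters, was in neither, nor in those of Gsc, Evx1, Tdgf1, Eomes or Prickle1. None of these other ranked genes had a TCF/LEF match either, and Evx1 and Eomes also had no GC box. All matches given here describe the letters of a window, not binding.

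T-high cells were 7.72% of kept cells (7.17 to 8.30) in the WT-labelled library and 8.82% (8.29 to 9.38) in the dko-labelled library. They made up 80.2% and 82.9% of all cells with at least 2 T UMIs. A further 1245 and 1772 cells without Foxa2 and Cdx2 had exactly 1 T UMI and fell just outside the rule. Among T-high cells 59.2% and 62.4% had exactly 2 T UMIs, and the highest count was 9 in each library. T had 194.9 and 232.7 CPM in these cells, a description of the rule itself.

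The share of T-high cells climbed with depth. In the WT-labelled library it went from 0.487% of cells with 2500 to 5000 UMIs to 20.1% of cells with at least 20000. The corresponding values in the dko-labelled library were 1.62% and 22.2%. At each depth the share was higher in the dko-labelled library, for example 4.31% (3.55 to 5.19) against 7.32% (6.52 to 8.19) at 7500 to 10000 UMIs, and 8.81% (7.92 to 9.76) against 14.5% (13.2 to 15.9) at 10000 to 15000. After thinning each cell to 7500 UMIs the shares were 4.43% (3.98 to 4.92) and 7.34% (6.75 to 7.96), with 1236 and 3352 shallower cells left out. Thinned to 2500 UMIs they were 0.896% (0.709 to 1.12) and 1.18% (0.984 to 1.41), which overlap. The intervals of the libraries thus lay apart at 7500 UMIs and overlapped in the unthinned cells and at 2500.

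**Figure D1:**
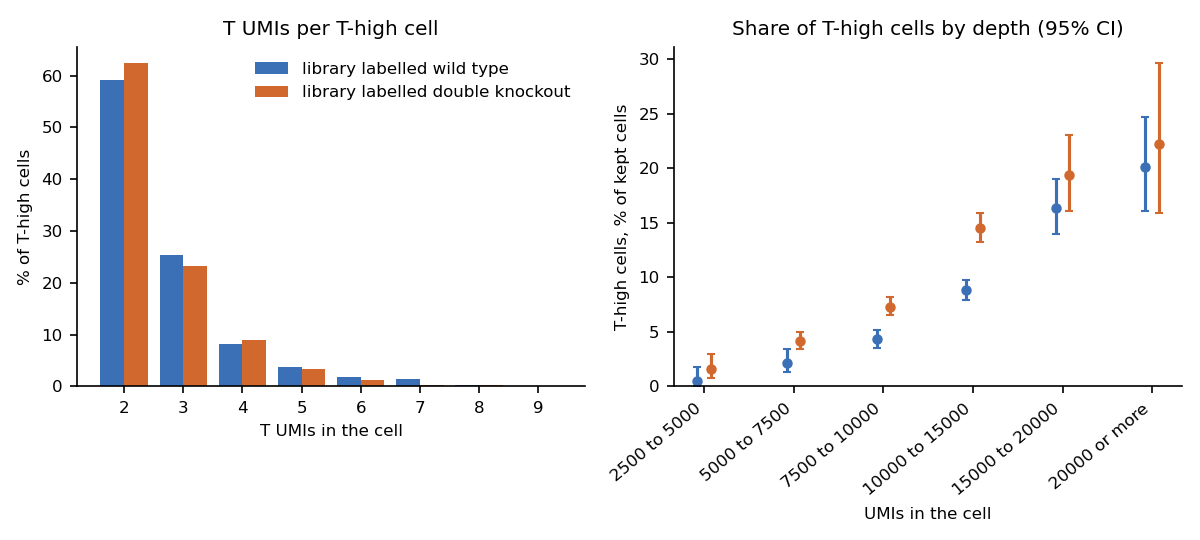
Left, T UMIs per T-high cell as a percentage of the T-high cells of each library. Right, T-high cells as a percentage of kept cells by UMI total with exact binomial 95% intervals; the share climbs with depth and each orange point (dko-labelled library) lies above its blue neighbour (WT-labelled library), with overlapping intervals in the lowest and the 2 highest classes.

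T was also counted in barcodes too shallow to be kept. Those with 10 to 200 UMIs had 25.5 and 27.2 T CPM, against 38.8 and 50.7 over all kept cells. Among 41 and 23 cells with at least 3 UMIs of the neural genes Sox1, Pax6 and Pax3, T was detected in 4.88% and 0%. None of these cells had 2 T UMIs, which allows a share of up to 8.60% and 14.8% by the exact interval. Their median depths were 10347 and 8751 UMIs. Of 41 and 24 cells with at least 5 UMIs of the naive genes Zfp42, Esrrb, Tfcp2l1 and Klf4, 9.76% (2.72 to 23.1) and 4.17% (0.105 to 21.1) had at least 2 T UMIs, against 9.62% and 10.6% of all kept cells. The share among these naive cells was thus not below that of all cells in the WT-labelled library, at median depths of 9222 and 9761 UMIs. Thinned to 2500 UMIs none of them had 2 T UMIs, against 0.976% and 1.26% of all kept cells. Cells with the highest doublet scores made up 13.1% and 14.3% of T-high cells, against 5.52% and 6.72% of T-negative cells. Without the marked cells the log2 ratio of Mixl1 against T-negative cells, described below, was 2.66 and 1.99, and that of Sox2 -1.31 and -1.08, so both were as large or larger. The part of free RNA in the results was not tested.

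The genes ranked highest in T-high against T-negative cells were led by the streak genes Mixl1, Gsc and Evx1, and those ranked lowest by Klf2, Ptn and Sox3. Only genes with the same sign in both libraries entered this ranking, so their shared sign is part of the rule. No difference was tested. Mixl1, a homeobox gene of the streak, was 5.58-fold higher in the WT-labelled library and 3.71-fold higher in the dko-labelled library. Sox2, Sox3 and Klf2 were lower. Few genes were involved. Among 7631 genes with a mean of at least 10 CPM, 42 (0.55%) were at least 1.5-fold higher in T-high cells and 32 (0.419%) at least 1.5-fold lower in the WT-labelled library. The counts in the dko-labelled library were 25 (0.329%) and 21 (0.276%) of 7607. Of 7477 genes that reached the minimum in both, 16 were higher in both and 12 lower in both. All 80 genes past 1.5-fold in at least 1 library had the same sign in the other. Across these genes the log2 ratios of the libraries had a Pearson correlation of 0.60 and a Spearman correlation of 0.43, as a description, since genes are not independent replicates.

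**Figure D2:**
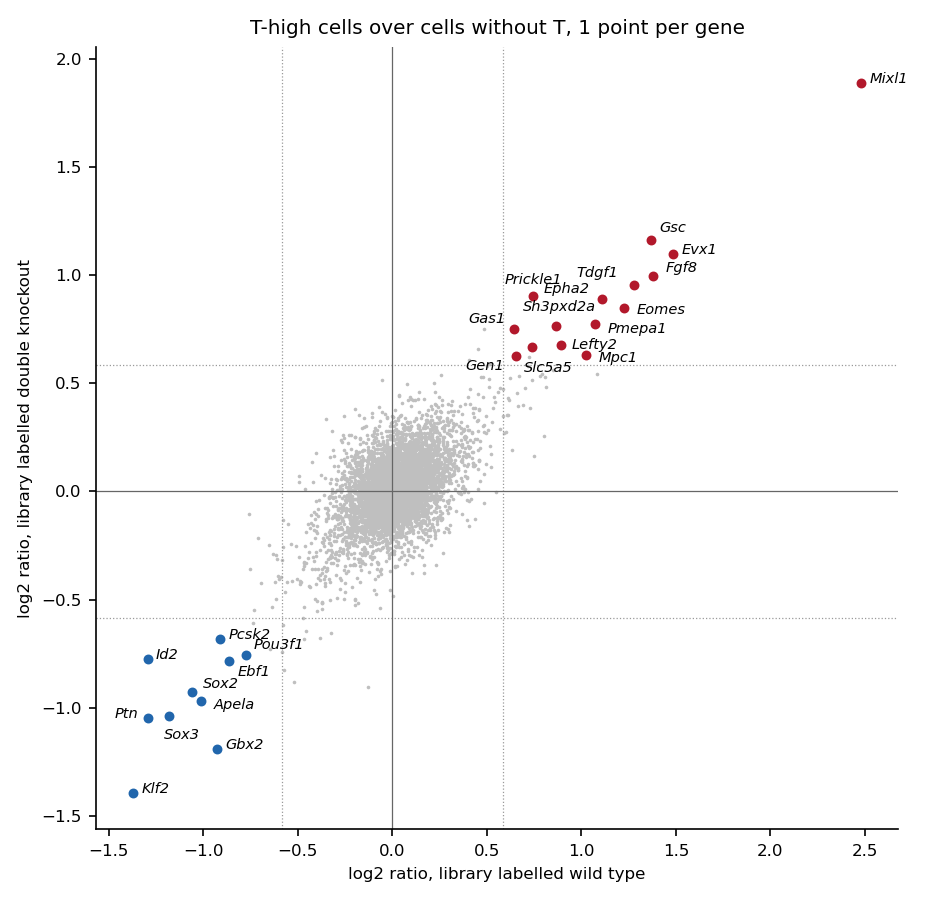
Log2 ratio of T-high over T-negative cells for each gene with a mean of at least 10 CPM, WT-labelled library on the x axis and dko-labelled library on the y axis, with dotted lines at 1.5-fold. Red and blue mark the 15 highest and 10 lowest ranked genes; Mixl1 stands apart at 2.48 and 1.89, and Klf2 is lowest at -1.37 and -1.40.

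Among streak transcription factors, Mixl1 (chromosome 1, 180693043 to 180697034, minus strand) had 32.0 CPM in T-high and 5.73 CPM in T-negative cells of the WT-labelled library, a log2 ratio of 2.48 (2.25 to 2.71). Its values in the dko-labelled library were 32.1 and 8.68 CPM, a log2 ratio of 1.89 (1.69 to 2.09). Even so, most T-high cells showed no Mixl1 UMI: it was detected in 21.1% and 21.6% of them, against 4.92% and 6.22% of T-negative cells. Thinned to 2500 UMIs the shares were 5.36% and 5.996% against 1.18% and 2.27%. Naive cells, which should lack Mixl1, had 9.76% and 8.33% with a UMI unthinned and 2.44% and 4.17% thinned, each from few cells. The thinned intervals of naive cells, 0.0617 to 12.9 and 0.105 to 21.1, contain the shares of both T-high and T-negative cells.

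Eomes, the T-box gene that acts with Nodal in mesendoderm, had 159.5 against 68.1 CPM in the WT-labelled library. It had 269.2 against 149.4 CPM in the dko-labelled library. The log2 ratios were 1.23 (1.14 to 1.31) and 0.85 (0.79 to 0.91), and 72.9% and 83.3% of T-high cells had an Eomes UMI, against 35.1% and 53.5% of T-negative cells and 17.1% and 29.2% of naive cells. Gsc, a homeobox gene of the organizer, had 20.1 against 7.81 CPM and 38.2 against 17.1 CPM, log2 ratios of 1.37 (1.11 to 1.61) and 1.16 (0.99 to 1.33). Evx1, a homeobox gene of the posterior streak, had 21.1 against 7.55 CPM and 15.6 against 7.30 CPM, log2 ratios of 1.48 (1.23 to 1.73) and 1.10 (0.83 to 1.36). Thus genes known from opposite ends of the streak were both higher in T-high cells. For Evx1 and Eomes an antisense gene overlaps, and the strand setting of the authors' counting is not given in the sources used here.

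Of the signalling genes, the ligand Fgf8, needed for cells to move away from the streak, had 172.4 against 66.4 CPM and 230.4 against 115.5 CPM. Its log2 ratios were 1.38 (1.29 to 1.46) and 1.00 (0.93 to 1.06). Tdgf1, which encodes the Nodal co-receptor Cripto, had 52.4 against 21.6 CPM and 70.6 against 36.5 CPM, log2 ratios of 1.28 (1.13 to 1.43) and 0.95 (0.83 to 1.07). Lefty2, a secreted Nodal inhibitor, had log2 ratios of 0.89 and 0.68, and Pmepa1, which restrains TGF-beta signalling, 1.07 and 0.77. A Nodal co-receptor and inhibitors of the pathway were thus higher in the same cells.

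In the Nodal pathway list 10 of 16 genes passed the minimum in both libraries, of which 3 and 2 were higher past 1.5-fold and none lower. The list's median log2 ratios were 0.49 and 0.17, against 0.02 in each library over all genes. The ligand Nodal itself had log2 ratios of 0.50 and 0.12. In the FGF list 13 of 21 genes passed, with 3 higher and none lower in the WT-labelled library. In the dko-labelled library 1, Fgf8, was higher and 1, the phosphatase gene Dusp4 at -0.65, was lower. Fgf5, an epiblast ligand, had log2 ratios of 0.81 and 0.53, the feedback antagonist Il17rd 0.79 and 0.54, and Dusp6, another phosphatase, 0.58 and 0.47. The medians were 0.40 and 0.14.

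Wnt target genes, of which T is itself one, differed little. None of the 12 Wnt feedback and effector genes that passed was past 1.5-fold in either library, and their medians were 0.10 and 0.03. Axin2, the common readout of the pathway, had log2 ratios of 0.13 and 0.08, and Lef1, a TCF/LEF factor, 0.10 and 0.25. Sp5, also a Wnt target, had 0.48 (0.39 to 0.57) and 0.30 (0.26 to 0.34). Among ligands and receptors, Wnt3, the ligand that starts the streak, had 65.6 against 40.4 CPM (0.70) and 69.9 against 50.2 CPM (0.48). The receptor gene Fzd2 was lower at -0.30 and -0.31. The BMP list had 6 of 17 genes above the minimum, and Id2, an inhibitor of basic helix-loop-helix factors and a BMP target, was past the fold at -1.29 and -0.77.

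In the whole streak list 9 of 14 genes besides T passed. All 9 had positive log2 ratios in both libraries, 7 and 6 of them were past 1.5-fold, and the medians were 1.28 and 0.95. This list was drawn up knowing the biology of T and with earlier results of these data known, so its direction is a check of the label rather than independent evidence. The other ranked genes were of varied function. Epha2 had 58.6 against 27.2 CPM and 69.7 against 37.7 CPM. Prickle1, a planar cell polarity gene, had log2 ratios of 0.75 and 0.90, Sh3pxd2a, a scaffold of invasive cell protrusions, 0.87 and 0.77, and Gas1, a membrane protein that binds Hedgehog ligands, 0.64 and 0.75. In the WT-labelled library 6 T-high cells with Mesp1, described below, held 45 Gas1 UMIs (528.2 CPM). The other T-high cells held 229 (24.9 CPM), so part of the Gas1 ratio there rests on those 6 cells. Slc5a5, the sodium-iodide symporter gene, had 0.74 and 0.67, and Gen1, which encodes a DNA junction resolvase, 0.65 and 0.63.

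Mpc1, a subunit gene of the mitochondrial pyruvate carrier, lies 136.8 kb from T on chromosome 17, from 8282904 to 8297661. It had 34.8 against 17.1 CPM and 26.8 against 17.3 CPM, log2 ratios of 1.02 (0.84 to 1.20) and 0.63 (0.43 to 0.82). Its level followed the T count in the WT-labelled library, with 17.1, 24.3, 29.97, 39.0 and 52.2 CPM in cells with 0, 1, 2, 3 to 4 and at least 5 T UMIs. The dko-labelled library had 17.3, 23.6, 27.2, 24.1 and 37.3 CPM. Of the 14 annotated genes within 500 kb of T, only 4 reached the minimum in both libraries. Besides Mpc1 these were Rnaset2a at -0.10 and 0.06, Fgfr1op at 0.00 and 0.20, and Sft2d1 at 0.29 and 0.19. Under the minimum, Prr18, 90.3 kb from T, had log2 ratios of 1.71 (0.96 to 2.40) and 1.22 (0.56 to 1.82). Pde10a had 0.92 (0.56 to 1.26) and 0.31 (-0.05 to 0.64), and the others stayed under 1 CPM.

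Genes that were lower in T-high cells were led by Klf2, a factor of naive pluripotency, with 14.4 against 37.5 CPM and 8.80 against 23.3 CPM. Sox2 had 18.6 against 38.9 CPM and 15.1 against 28.9 CPM, log2 ratios of -1.06 (-1.29 to -0.84) and -0.93 (-1.18 to -0.70). Sox3 had 25.1 against 57.0 CPM and 16.8 against 34.7 CPM. The Sox2 gene lies within Sox2ot on the same strand, so some of its UMIs could be of that transcript. Pou3f1, a POU factor of the primed epiblast, had log2 ratios of -0.77 and -0.76, and the homeobox gene Gbx2 -0.93 and -1.19. Ptn, a secreted growth factor, had -1.29 and -1.05, Apela, a ligand of the apelin receptor, -1.01 and -0.97, Ebf1, a transcription factor, -0.86 and -0.78, and Pcsk2, a prohormone convertase, -0.91 and -0.68. Irx3, a homeobox gene under the 10 CPM minimum that was singled out after its values were seen, had log2 ratios of -1.87 and -2.10.

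Pluripotency genes did not share a direction. Pou5f1, the core pluripotency factor, had 762.8 against 620.0 CPM (0.30) and 711.6 against 660.4 CPM (0.11), and Nanog had log2 ratios of 0.40 and 0.29. In the primed epiblast list 19 of 20 genes passed, and 3 were past the fold higher and 2 lower in the WT-labelled library, with 0 and 2 in the dko-labelled library. The lower ones were Sox3 and Pou3f1, while Fgf5 and Trh, a hormone precursor gene, had positive ratios in both. L1td1, an RNA-binding protein gene at 0.59 and 0.27, was past the fold in the WT-labelled library. The 3 naive genes that passed, Klf2, Zfp42 and Dppa5a, all had negative ratios. Among core factors T-high cells had more Pou5f1 and Nanog RNA and less Sox2 RNA.

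**Figure D3:**
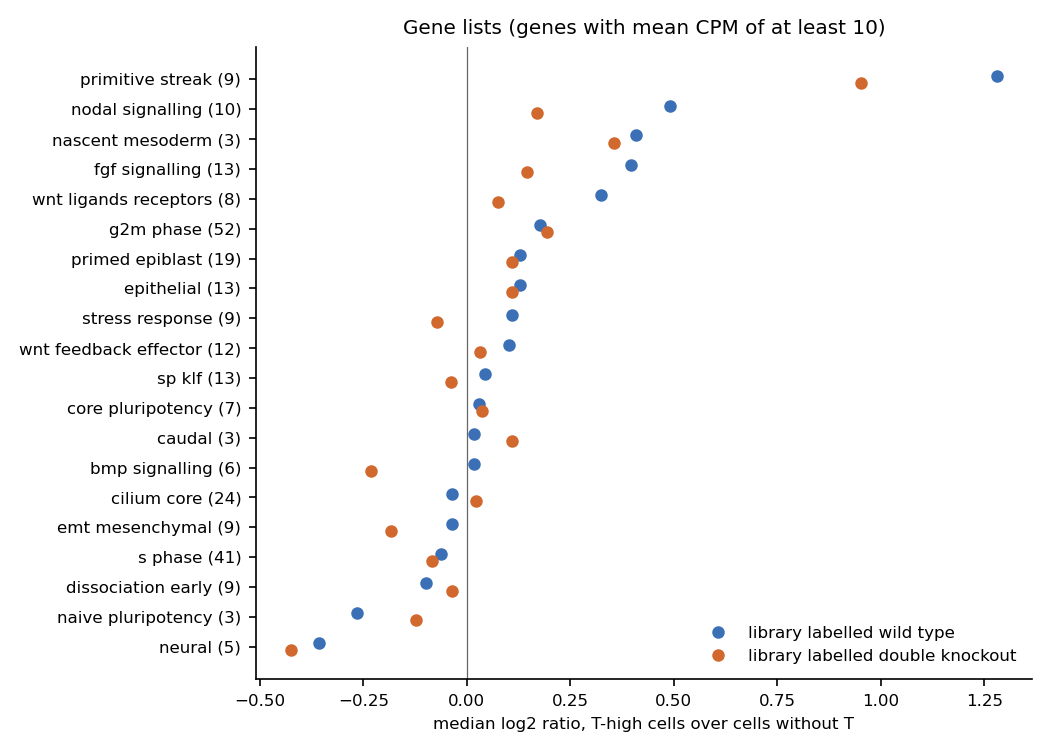
Median log2 ratio of T-high over T-negative cells for each gene list with at least 3 genes above the minimum in both libraries, with their number in brackets, blue for the WT-labelled library and orange for the dko-labelled library. The streak list lies farthest right at 1.28 and 0.95, and the other plotted lists lie within 0.5 of 0. The T-box list (1 gene, at 1.23 and 0.85) and the anterior streak list (2 genes, at 0.94 and 0.82) are not plotted.

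Epithelial genes were near the level of T-negative cells. Cdh1, the epithelial cadherin, had 209.6 against 191.8 CPM and 179.8 against 166.8 CPM, log2 ratios of 0.13 and 0.11. In the epithelial list, 11 and 12 of the 13 genes that passed had positive ratios and none was past 1.5-fold. Cdh2, the cadherin of mesenchymal cells, had -0.04 and -0.18, and Vim -0.24 and -0.27. Of the 9 mesenchymal genes that passed, Fn1, the fibronectin gene, was past the fold in the WT-labelled library at 0.60, and had 0.27 in the dko-labelled library. Without the 6 T-high cells with Mesp1, described below, its ratio in the WT-labelled library was 0.42.

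Several markers of later fates were at or near 0, while the nascent mesoderm list as a whole summed to 125.9 against 90.8 CPM and 116.6 against 94.9 CPM. Of its 24 genes 3 passed the minimum, all with positive log2 ratios: Lefty2, given above, Rspo3, a Wnt agonist gene, at 0.41 and 0.17, and Dll3, a Notch ligand gene, at 0.16 and 0.35. Msgn1 and Osr1 had no UMI in T-high cells of either library, and Tbx6, a T-box gene of presomitic mesoderm, had 0.65 and 0.48 CPM. Of the anterior streak and endoderm genes Cer1, Noto and Shh had no UMI, and Sox17 had 0.43 and 0.10 CPM. As a whole that list, without T, Foxa2 and Cdx2, summed to more in T-high cells, 78.65 against 53.0 CPM and 125 against 85.5 CPM. The caudal genes Cdx1, Cdx4 and Hoxb1 each stayed under 1 CPM. The caudal list as a whole, without T, Foxa2 and Cdx2 and with Evx1 and Nkx1-2 in it, summed to 64.45 against 48.1 CPM and 50.4 against 45.8 CPM. Summed CPM of the neural list were 548.4 against 707.9 and 479.6 against 583.4, and those of the extraembryonic endoderm list 153.4 against 145.9 and 105.0 against 133.2. The naive list summed to 183.9 against 226.0 and 193.8 against 214.5. The part of these cell types in the results was not tested.

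Mitosis genes were slightly higher in T-high cells, and less so against T-negative cells of matched depth. All 52 genes of the G2/M list passed the minimum, none was past 1.5-fold, and 43 and 44 had positive log2 ratios, with medians of 0.18 and 0.19. Top2a, the topoisomerase of mitotic chromosomes, had 0.36 (0.31 to 0.40) and 0.39 (0.35 to 0.43). In the S phase list of 41 genes the medians were -0.06 and -0.08, and Cdc6, a replication licensing gene, had -0.40 and -0.56. When T-negative cells were weighted to the depths of T-high cells, the G2/M medians were 0.04 and 0.08 and Top2a had 0.10 and 0.13. Mixl1 kept 2.38 and 1.94 under the same weighting, and Sox2 -0.97 and -0.83. The 24 cilium genes that passed had medians of -0.03 and 0.02, with none past the fold.

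The remaining lists held few genes past the fold. Of 9 stress response genes that passed, Trib3, a pseudokinase gene at 0.80 and 0.25, and Chac1, which degrades glutathione, at 0.61 and 0.43, were past it in the WT-labelled library and none was in the other. None of the 9 dissociation response genes was past it, with medians of -0.10 and -0.04. In the Sp and Klf family list 1 of 13 genes was lower in each library, Klf2. In the neural list 1 of 5 genes was lower in each, Sox2, with list medians of -0.36 and -0.42. Of 10 T-box genes besides T only Eomes passed, and of the 2 extraembryonic endoderm genes that passed none was past the fold. Of the 3 caudal genes that passed Evx1 was past it, while Nkx1-2 had 0.00 and -0.48.

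Some streak genes were also higher with more T UMIs among the T-high cells, and others were not. Mixl1 had 5.73, 16.3, 20.04, 37.1 and 98.9 CPM in cells with 0, 1, 2, 3 to 4 and at least 5 T UMIs of the WT-labelled library. It had 8.68, 19.1, 29.8, 33.0 and 51.9 CPM in the dko-labelled library. The highest class held 49 and 50 cells. Leaving out 3 Mesp1-expressing cells brought its Mixl1 level in the WT-labelled library to 80.3 CPM (60.5 to 104.5). The class with 3 to 4 T UMIs of that library also held 58 Mesp1 UMIs, and its Mixl1 level was not recomputed without such cells. Cells with 1 T UMI thus lay between T-negative and T-high cells. Median depth in these classes was 10095, 11437, 12772, 12745 and 13285 UMIs in the WT-labelled library, nearly level between 2 and 3 to 4 T UMIs. It climbed at each step in the dko-labelled library, at 8206, 9262.5, 10105, 10766 and 10910 UMIs.

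Fgf8 was also higher with more T, with 66.4, 119.0, 138.3, 218.7 and 228.1 CPM in the WT-labelled library and 115.5, 187.8, 217.8, 230.8 and 358.6 CPM in the dko-labelled library. Without 3 Mesp1-expressing cells the highest class of the WT-labelled library had 207.3 Fgf8 CPM (174.6 to 244.3). This was not above the class with 3 to 4 T UMIs, which was not recomputed. In the dko-labelled library the intervals at 2 and at 3 to 4 T UMIs overlapped for Fgf8 and for Mixl1. Eomes had most of its gain by 2 T UMIs, with 68.1, 122.3, 149.9, 169.8 and 186.9 CPM and with 149.4, 214.5, 252.9, 293.1 and 303.4 CPM. Sox2 went the other way, with 38.9, 22.6, 20.8, 16.0 and 13.7 CPM and with 28.9, 18.4, 15.7, 15.2 and 8.1 CPM. Cdh1 had 191.8 CPM at 0 and 202.0 CPM at 5 or more T UMIs in the WT-labelled library, and 166.8 and 159.0 CPM in the other. Among T-high cells other genes showed no clear rise in at least 1 library. With 2, 3 to 4 and at least 5 T UMIs, Epha2 had 58.1, 60.7 and 53.6 CPM and Sp5 135.9, 135.9 and 144.3 CPM in the WT-labelled library. Gsc had 37.6, 39.3 and 37.3 CPM in the dko-labelled library. Lefty2 was lowest at 5 or more T UMIs, with 21.3, 22.1 and 15.1 CPM and with 23.6, 29.0 and 11.4 CPM.

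**Figure D4:**
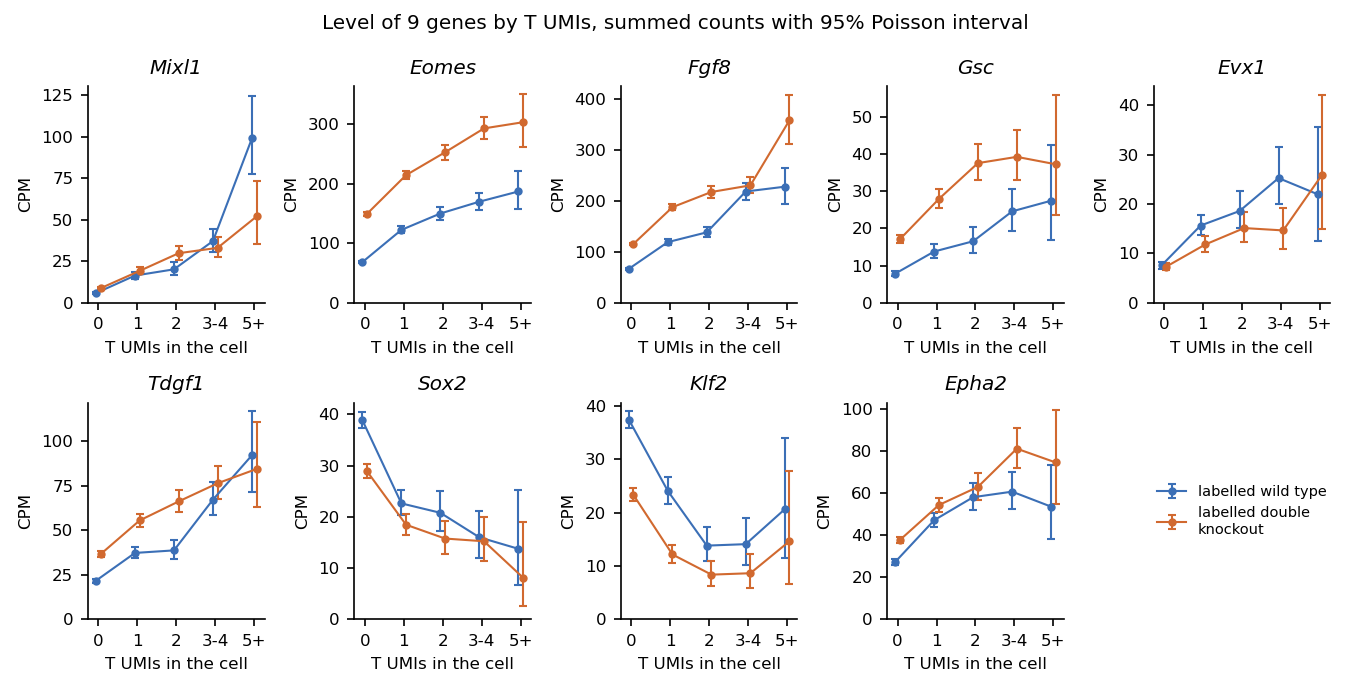
Level in CPM of 9 genes in cells without Foxa2 and Cdx2, grouped by their T UMIs (x axis), blue for the WT-labelled library and orange for the dko-labelled library, with Poisson 95% intervals. Mixl1 climbs from 5.73 to 98.9 CPM in the blue series while Sox2 goes from 38.9 to 13.7 CPM.

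Some pairs of streak genes went together among the T-high cells, and others did not. Gsc was detected in 143 and 284 T-high cells, Evx1 in 149 and 140, and both together in 40 and 49. Whether this overlap exceeds that of unlinked genes was not tested. Evx1 had 23.4 CPM (17.4 to 30.8) with Gsc against 20.4 (17.2 to 24.0) without, and 16.2 (12.2 to 21.2) against 15.3 (12.6 to 18.5). With and without Evx1, Eomes had 203.7 and 146.7 CPM in the WT-labelled library. In the other it had 281 (256 to 308) and 267 (256 to 278), which overlap. T-high cells with a Mixl1 UMI had 259.8 Eomes CPM (238.4 to 282.6), against 130.3 (122.1 to 138.9) without, in the WT-labelled library. The values in the dko-labelled library were 357.9 (334.4 to 382.6) and 242.7 (232.1 to 253.8). Cells with a Gsc UMI also had more Fgf8, at 259.6 against 145.6 CPM and 290.2 against 202.4 CPM. Cells with a UMI of the splitting gene were somewhat deeper, with medians of 13412 against 12538 UMIs for Mixl1 in the WT-labelled library. The 420 cells of that library with neither Gsc nor Evx1 had 15.3 Mixl1 CPM, and the 40 cells with both had 109.5 (83.9 to 140.3). Those 40 cells also had 58.3 Mesp1 CPM, and the part of the Mesp1 cells described next in their Mixl1 level was not tested. In the dko-labelled library the Mixl1 levels were 22.8 CPM with neither, 54.8 (41.6 to 70.8) with Evx1 alone and 48.2 (32.3 to 69.3) with both.

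Mesp1, the gene of the first mesoderm cells to leave the streak, was carried by very few cells. In the WT-labelled library 8 of 8707 kept cells (0.0919%, 0.0397 to 0.181) had at least 2 Mesp1 UMIs, and 6 of these were T-high. They held 82 of the 86 Mesp1 UMIs of all T-high cells, with 2 to 31 UMIs each, and none had a high doublet score. In the dko-labelled library 0 of 10587 kept cells had 2 Mesp1 UMIs, which allows a share of up to 0.0348% by the exact interval. This split was chosen after the values were seen and rests on 1 library per genotype.

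The 6 T-high cells with Mesp1 looked unlike the others. They had 46.9 Cdh1 CPM (12.8 to 120.2), against 211.1 in the other T-high cells of that library, and 211.3 Cdh2 CPM (125.2 to 333.9) against 27.6. Fn1 had 657.3 CPM (496.5 to 853.5) against 40.8, and Mixl1 422.5 (295.9 to 585.0) against 28.3. Lhx1, a LIM homeobox gene of nascent mesoderm, had 293.4 CPM (189.9 to 433.2) against 1.30, and Snai1, the repressor of Cdh1, 82.2 (33.0 to 169.3) against 6.30. Sox2 and Lefty2 had 0 UMIs, with an exact upper limit of 43.3 CPM. Their low Cdh1 and high Cdh2 were thus the reverse of the remaining T-high cells.

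Cells that had T together with Foxa2 or Cdx2 are the populations most like the T-high cells by the rule. The 40 and 114 cells with at least 2 T UMIs and Foxa2 had 117.7 and 104.4 Mixl1 CPM, against 32.0 and 32.1 in T-high cells, log2 ratios of -1.89 (-2.28 to -1.47) and -1.70 (-1.99 to -1.40). Both groups were chosen by the same minimum of 2 T UMIs, so their T levels largely describe the rule. T had 226.2 CPM (188.0 to 269.9) with Foxa2 against 194.9, and 253.7 (227.2 to 282.5) against 232.7. Adamts9, a secreted metalloprotease gene, had 40.5 and 71.6 CPM with Foxa2, against 13.8 and 21.6. Fgf8 had 345.8 and 406.1 CPM with Foxa2, and Eomes 307.1 and 402.3. The intervals of the T ratio reached 0 in both libraries, which under the shared T minimum is no measure of likeness.

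Cells with T and Cdx2 shared the T minimum, so their T level also largely describes the rule. In these 132 and 92 cells T had 238.2 and 221.2 CPM. The log2 ratios of T-high cells over them were -0.29 (-0.44 to -0.13) and 0.07 (-0.12 to 0.27). Nkx1-2, a homeobox gene of the caudal epiblast, had 31.2 and 23.3 CPM there, against 19.8 and 13.5, log2 ratios of -0.67 (-1.10 to -0.20) and -0.81 (-1.40 to -0.12). Mixl1 had 42.9 and 69.0 CPM, log2 ratios of -0.43 (-0.79 to -0.05) and -1.11 (-1.46 to -0.72). Fgf8, Sox2 and Cdh1 had intervals of the difference that reached 0 in both libraries. Epha2 had 58.6 CPM in T-high cells against 36.8 with Cdx2 in the WT-labelled library, and 69.7 against 80.6 in the other.

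Between libraries, T-high cells of the dko-labelled library had more RNA of Sp5, Gsc, Otx2 and Eomes, and less of the imprinted genes Grb10 and Cdkn1c and of Epha4. Among 7636 genes with a mean of at least 10 CPM in T-high cells, 28 (0.367%) were at least 1.5-fold higher and 43 (0.563%) at least 1.5-fold lower in the dko-labelled library. Under TMM scaling, which sets the bulk of genes equal, the counts were 35 and 30, so the excess of lower genes depends on the scaling. Among T-negative cells 22 genes were higher (0.289%) and 22 lower (0.289%) of 7609. The larger counts in T-high cells come with fewer UMIs summed, 9293845 and 10451332 against 62507764 and 60702710. In the streak list 3 of the 9 genes that passed were past the fold higher in the dko-labelled library, Sp5, Gsc and Eomes, and none was lower, with a median of 0.42 against -0.02 over all genes. Sp5, a targeted gene, is part of this count and median. All 3 had larger ratios in T-negative cells, as given below.

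Most of the ranked genes had a like ratio in T-negative cells. Log2 ratios of the dko-labelled over the WT-labelled library were 1.99 (1.90 to 2.08) in T-high and 2.17 in T-negative cells for Sp5. They were -2.83 (-3.14 to -2.55) and -2.68 for Grb10, a growth inhibitor gene, and -1.70 and -1.53 for the cell cycle inhibitor gene Cdkn1c. Otx2, an anterior homeobox gene, had 0.84 and 0.87, Gsc 0.92 and 1.13, and Foxb1, a forkhead gene, -0.83 and -0.68. The VEGF receptor gene Flt1 had 1.15 and 0.86, and Prickle1 0.84 and 0.69. For all of these except Sp5 the 2 intervals overlapped.

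Besides Sp5, 4 of the 20 ranked genes had intervals in T-high cells that lay apart from those in T-negative cells. Epha4, an ephrin receptor gene, had 22.5 and 9.76 CPM in T-high cells, a log2 ratio of -1.20 (-1.56 to -0.86), and -0.42 in T-negative cells. It was nearly level between T-high and T-negative cells of the WT-labelled library (-0.13) and lower in those of the dko-labelled library (-0.90). Bmp7, a BMP ligand, had 7.42 and 17.4 CPM, a log2 ratio of 1.22 (0.82 to 1.65), and 0.50 in T-negative cells. Gsdme, a gasdermin gene, had 0.85 (0.56 to 1.14) and 0.35, and Zbtb1 -0.84 and -0.22. These genes were picked out as the extremes of many, and the difference was not tested.

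Mixl1, Eomes, Fgf8 and Tdgf1 were closer between libraries in T-high cells than in T-negative cells, while Evx1 was not. Mixl1 had 32.0 and 32.1 CPM in T-high cells, a log2 ratio of 0.01 (-0.22 to 0.24), and 0.60 in T-negative cells. Without the cells that express Mesp1 the ratio in T-high cells was 0.18. Eomes had 0.76 (0.66 to 0.85) and 1.13, Fgf8 0.42 (0.33 to 0.51) and 0.80, and Tdgf1 0.43 (0.26 to 0.60) and 0.76. Evx1 had -0.43 (-0.74 to -0.13) and -0.05. Median depth was lower in the dko-labelled library, as given above. T itself had a log2 ratio of 0.26 (0.17 to 0.34). T-high cells of both libraries were chosen by the same T minimum, which is a larger part of all UMIs in shallower cells. The T ratio thus largely describes the rule and is no measure of a T difference between the libraries. Barcodes with 10 to 200 UMIs had 7.61 and 15.5 Mixl1 CPM and 78.3 and 144.2 Fgf8 CPM, above the T-negative cells in both libraries. Their Eomes level, 50.1 and 102.3 CPM, was below that of T-negative cells, 68.1 and 149.4 CPM. Tdgf1 was not examined in them. The part of depth, T and free RNA in these ratios was not tested.

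**Figure D5:**
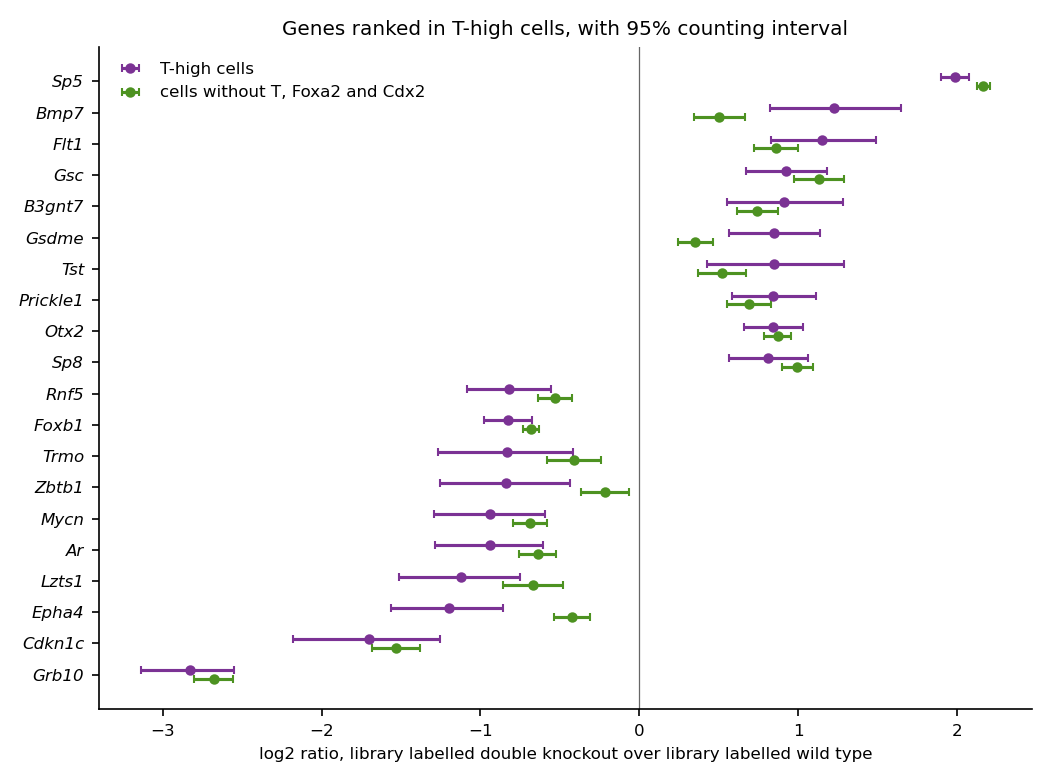
Log2 ratio of the dko-labelled over the WT-labelled library for the 20 genes ranked in T-high cells (purple), with the same ratio in T-negative cells (green) and 95% counting intervals. Sp5 is highest and Grb10 lowest in both, and Epha4 (-1.20 against -0.42) is among those whose purple and green intervals are apart.

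Among cells with at least 4000 UMIs, those with few UMIs from chromosome 11, at most 0.8 times the median share, were 25.9% of T-high and 13.3% of T-negative cells in the WT-labelled library. The shares in the dko-labelled library were 10.3% and 4.595%. For chromosome 6 they were 27.7% and 17.2%, and 15.0% and 18.2%. Without these cells T-high cells were 6.67% and 8.82% of the remainder, and 43 genes were higher and 46 lower between the libraries. The low cells were thus over-represented among T-high cells for chromosome 11 in both libraries, and for chromosome 6 in the WT-labelled library.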

How the data were processed

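Single-cell RNA was measured in 2 libraries, 1 per genotype, made with the 10x Genomics 3′ kit per the labels' protocols. The matrices the authors deposited hold raw UMI counts for each barcode and gene. The labels name Cell Ranger 8.0.1, while the submitters' processing notes name STARsolo, STAR 2.7.9a, Seurat 5.1.0 and mm10. Which of these made the deposited counts is not given in the sources used here. The labels state 9238 and 11190 captured cells. Here barcodes with at least 2500 UMIs, at least 1000 genes and at most 10% mitochondrial UMIs were kept, which left 8707 and 10587. Their median genes per cell, 3275 and 2884, were below those the labels state for the captured cells. Doublets were scored per library against simulated pairs and were not removed in the main values, but taken out as an alternative at 0.8% per 1000 cells.

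UMIs were summed over the cells of a group and scaled to CPM. Log2 ratios used a prior of 0.5 UMIs. Sums carry exact Poisson intervals, ratios exact conditional intervals and shares Clopper-Pearson intervals, all at 95%. UMI sums treat molecules as independent, and 1 library per genotype allows no test. A gene was counted as higher or lower past 1.5-fold at a mean of at least 10 CPM. The genes named are 10 fixed ones, the 15 highest and 10 lowest by the smaller ratio of the 2 libraries, the 10 highest and 10 lowest between libraries, and up to 4 per list with the largest ratios. The 15 highest and 10 lowest were taken among genes with the same sign in both libraries. Mitochondrial, ribosomal protein, Gm-numbered and Rik genes were left out of the ranks. Other genes were named after their values were seen, to describe a list, a cell type or a neighbour. The members and all 23 lists were chosen with earlier results of these data known. Ratios and intervals were tested on simulated data. Positions are from GENCODE M21 on GRCm38, to which 32235 of 32285 gene IDs matched. Python 3.11.15, scipy 1.17.1 and edgeR 4.0.16 (TMM factors only) were used.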

Additional observations from a re-analysis of the deposited data

How the results depend on the processing

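No paired analysis was possible because each genotype has 1 library and the labels carry no replicate numbers. The share of T-high cells was 7.72% and 8.82% (WT-labelled, then dko-labelled library). It was 3.15% and 3.32% at 3 or more T UMIs, 22.0% and 25.6% at 1 or more, 0.896% and 1.18% on counts thinned to 2500 UMIs, and 4.43% and 7.34% at 7500 UMIs, a setting chosen after seeing the data. Without the highest doublet scores the second was 8.26%, and without cells low on chromosome 6 or 11 the first was 6.67%. Counts past 1.5-fold are given as higher and lower in T-high cells of the WT-labelled, then of the dko-labelled library, then between libraries. They were 90 and 73, 65 and 35, and 87 and 116 at 3 or more T UMIs. At 1 or more they were 20 and 14, 12 and 12, and 21 and 23. Chosen on counts thinned to 2500 UMIs, 345 and 272, 206 and 173, and 490 and 645 passed, with 78 and 125 cells left in the rule. At a mean CPM minimum of 1 they were 260 and 320, 186 and 284, and 354 and 501, and with no minimum 3970 and 1840, 3837 and 1969, and 2312 and 2716. On counts thinned to 7500 UMIs, 64 genes were higher in the WT-labelled library, and 79 higher and 118 lower between libraries. Without the highest doublet scores 32 were lower in the dko-labelled library, and without cells low on chromosome 6 or 11, 43 were higher between libraries. The 25 genes ranked against T-negative cells kept their sign in all 600 values over the alternatives run, 569 of them past 1.5-fold, and the 20 ranked between libraries did so in 218 of 220. The exceptions, on counts thinned to 2500 UMIs, were Mycn at 0.22 and Tst at -0.47. Trib3, from the stress list, was -0.78 there in the WT-labelled library. Mesp1 between libraries was 0.11 without cells with at least 2 Mesp1 UMIs, a setting added after seeing the data. That setting removes cells by the gene measured and left 4 and 5 Mesp1 UMIs, so 0.11 is no check of the Mesp1 difference. Weighting T-negative cells to the depth of T-high cells left 35 and 30, and 22 and 25 genes. Causes were not tested. The share of T-high cells was higher in deeper cells.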
